A study of Mus musculus with 6 samples.

Results

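The genes described here are the FoxO transcription factor genes Foxo1, Foxo3 and Foxo4 and 7 genes linked to quiescence, the reversible exit from the cell cycle, namely Ccng2, Pik3ip1, Btg1, Btg2, Klf2, Tob1 and Txnip. They were chosen by symbol through the array's annotation, and 10 of the 10 were measured, each by a single probe set, among 19505 named genes on the array. RAW264.7, a mouse macrophage cell line, was grown for 3 days on pristine polyetheretherketone (PEEK), an implant polymer, or on a PEEK surface that had been modified in a way the available descriptions leave unnamed. Each surface had 3 samples, with no genetic change or drug named for either, and total RNA was measured on 1 Affymetrix array per sample. Whether these were separate cultures is not stated, and the p-values therefore reflect the spread among the samples alone, which could be technical.

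FoxO proteins are forkhead transcription factors that bind DNA and raise genes of cell-cycle arrest, stress resistance and autophagy. Growth factor signalling through PI 3-kinase and the kinase Akt phosphorylates them and holds them in the cytoplasm, so their activity is set largely after translation and need not follow their mRNA. Several of the other genes are known FoxO targets or brakes on proliferation: Ccng2 encodes the unconventional cyclin G2, Pik3ip1 a membrane inhibitor of PI 3-kinase, Btg1, Btg2 and Tob1 antiproliferative adaptors of the CCR4-NOT deadenylase, Klf2 a zinc-finger factor known to restrain inflammatory activation of monocytes, and Txnip a glucose-responsive arrestin-like protein that binds thioredoxin and limits glucose uptake.

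Pik3ip1 and Ccng2 rose on modified PEEK, by 2.07-fold and 1.45-fold, and Klf2 fell by 0.53 on the log2 scale. The 3 FoxO genes and Btg1, Btg2, Tob1 and Txnip did not pass the test. Thus 2 of the 10 genes were higher and 1 was lower at an adjusted p under 0.05 (limma, Benjamini-Hochberg over all genes), beside 5.24% of all genes called higher and 5.15% called lower, or 10.4% in either direction. The median change of the 10 genes was 0.0633, beside 0.0088 for all genes. Changes are modified minus pristine PEEK on the log2 scale, and a fold is 2 to that power. All 10 genes were brighter on both surfaces than 3.72, a background taken as the 95th percentile over 1410 chemosensory receptor genes (olfactory and vomeronasal), few of which a macrophage uses. The same held for 7 of 23 markers of 6 other lineages, so a signal above it does not by itself show expression. With genes below it on both surfaces left out, limma called 2661 of 13227 genes, a larger share than 10.4%. The calls of the 10 genes were unchanged there. The arrays of the surfaces did not overlap for 5 of the 10 genes, beside 28.8% of all genes.

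**Figure D1:**
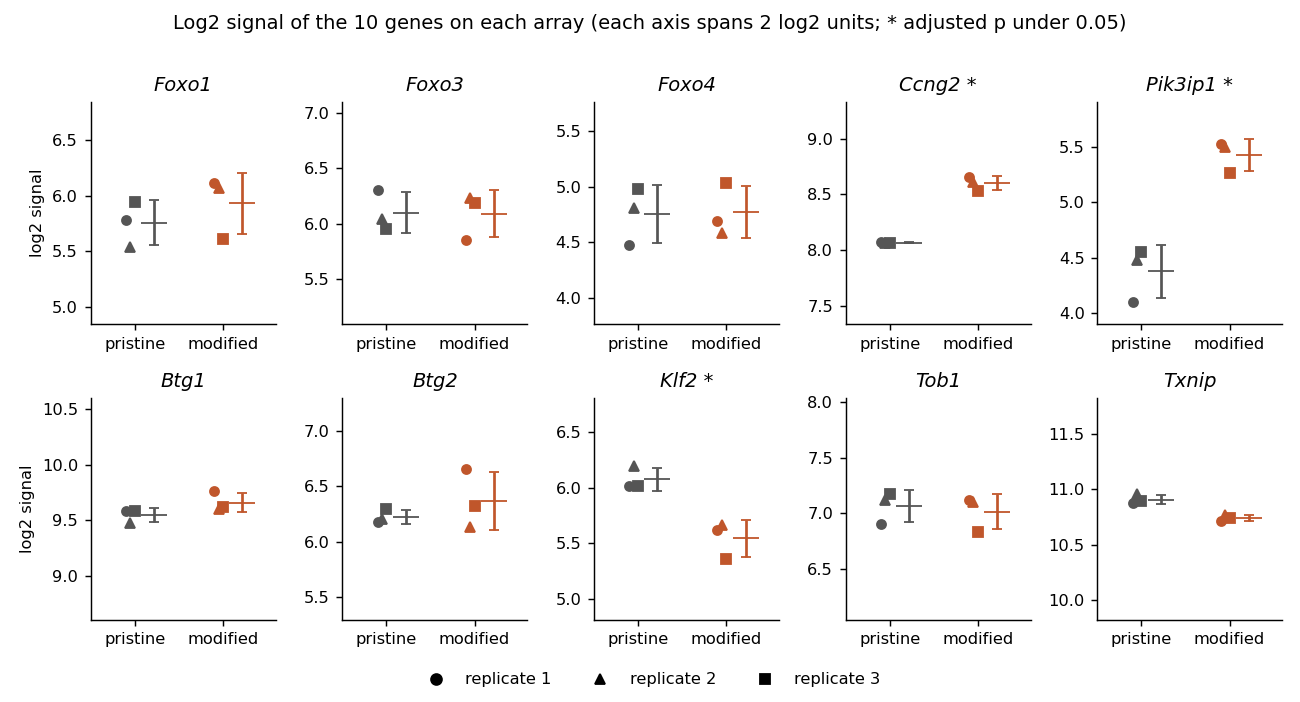
Log2 signal (vertical axes, each spanning the same range of the log2 scale) of the 10 genes on the pristine (grey) and modified (orange) PEEK arrays, with point shapes for replicate numbers and a dash with bars for mean ± SD (n = 3). Pik3ip1, Ccng2 and Klf2 show separated groups of arrays, while the points of Foxo1, Foxo3 and Foxo4 intermingle.

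Pik3ip1, whose product binds the catalytic subunit of PI 3-kinase and dampens its signal upstream of FoxO, showed the largest change of the 10. Its log2 signal was 4.10, 4.48 and 4.55 on the pristine arrays and 5.52, 5.50 and 5.26 on the modified arrays. All modified arrays lay above all pristine arrays, and the lowest pristine value, on replicate 1, stood apart from the other two of its surface. The mean went from 4.38 ± 0.24 to 5.43 ± 0.15 (SD, n = 3), a change of 1.05 ± 0.14 (SE; 95% confidence interval 0.72 to 1.38; adjusted p = 0.0026). The pristine mean lay not far above the background of 3.72, so the fold rests on a dim signal. Of all genes, 98.3% changed by less in either direction. The gene passed in each of the 18 alternative settings in which it was tested, with changes of 0.91 to 1.30. The highest adjusted p among them was 0.0431, from an ordinary t statistic per gene. Over the 6 arrays, after each gene was centred on its own mean, the genes nearest to its pattern were H4c14, a histone gene, Calhm6 and Tcf19, with root mean square differences of 0.0699, 0.0859 and 0.0948 on the log2 scale. These genes rose by 1.05, 1.10 and 1.09, which says little, as they were picked for patterns close to Pik3ip1. Shared control was not tested.

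Ccng2, whose cyclin G2 protein accumulates in cells leaving the cycle rather than driving division, rose as well. The pristine arrays read 8.07, 8.06 and 8.06, and the modified arrays 8.66, 8.61 and 8.53. The pristine values were almost identical and the modified values lay above them on 3 of 3 arrays. The mean went from 8.06 ± 0.0051 to 8.60 ± 0.063 (SD, n = 3), a change of 0.54 ± 0.088 (SE; 95% confidence interval 0.33 to 0.74; adjusted p = 0.0066). It passed in 19 of 19 alternative settings, with changes of 0.51 to 0.78. The related cyclin gene Ccng1, a p53-responsive gene, read 9.85 on pristine and 9.66 on modified PEEK (adjusted p = 0.412), and Ccni read 10.38 and 10.44 (adjusted p = 0.741).

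Klf2, the monocyte-restraining factor, moved the other way. Its signal was 6.01, 6.20 and 6.02 on pristine and 5.62, 5.66 and 5.35 on modified PEEK. Modified replicate 3 was the lowest array, and no modified array reached the pristine range. The mean went from 6.08 ± 0.10 to 5.55 ± 0.17 (SD, n = 3), and the gene fell by 0.53 ± 0.12 (SE; 95% confidence interval of the change -0.80 to -0.26; adjusted p = 0.0233). The call held in 13 of 19 alternative settings. It did not pass in the fits that left out pristine replicate 1 (adjusted p = 0.0615), 2 (0.0949) or 3 (0.0678) or modified replicate 3 (0.0722), with an ordinary t statistic (0.0829), and when the arrays were scaled to the poly-A spikes, control transcripts of the assay (change -0.28, adjusted p = 0.289). Under that scaling the change was -0.54 relative to the median of all genes, and its SE was 0.18.

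Promoter sequences of these genes are shown to set letters known to bind FoxO and glucose-responsive factors beside the measured changes. RefSeq promoters (build GRCm38.p6) were matched by symbol for 9 of the 10 genes; Foxo4 was not matched. The 250 bases before each start site were searched on both strands for the FoxO core TGTTTAC, the carbohydrate response half-site CACGNG, the TATA box TATAAA, the Kruppel-like factor box CCACACCC and the cyclic AMP response element TGACGTCA, none of which is part of another. Capitals mark every match to any of these in the sequences shown. Of 32851 promoter windows in the table, 3.17% held the FoxO core, 23.5% the half-site, 12.4% the TATA box, 3.20% the Kruppel-like factor box and 1.55% the cyclic AMP element. The windows of Pik3ip1, Ccng2 and Klf2, the genes that passed, lie at chr11:3330481-3330730 (plus strand), chr5:93267323-93267572 (plus strand) and chr8:72318812-72319061 (plus strand).

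Pik3ip1: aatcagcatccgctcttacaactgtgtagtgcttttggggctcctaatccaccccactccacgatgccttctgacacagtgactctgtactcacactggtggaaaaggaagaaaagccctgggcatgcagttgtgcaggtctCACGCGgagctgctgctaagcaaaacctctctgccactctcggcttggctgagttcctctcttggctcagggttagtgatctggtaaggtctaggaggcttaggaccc
Ccng2: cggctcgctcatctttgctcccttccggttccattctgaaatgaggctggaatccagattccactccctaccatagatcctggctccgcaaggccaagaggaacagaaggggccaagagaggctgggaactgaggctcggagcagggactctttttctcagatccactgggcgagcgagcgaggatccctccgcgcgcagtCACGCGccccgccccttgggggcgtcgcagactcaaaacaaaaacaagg
Klf2: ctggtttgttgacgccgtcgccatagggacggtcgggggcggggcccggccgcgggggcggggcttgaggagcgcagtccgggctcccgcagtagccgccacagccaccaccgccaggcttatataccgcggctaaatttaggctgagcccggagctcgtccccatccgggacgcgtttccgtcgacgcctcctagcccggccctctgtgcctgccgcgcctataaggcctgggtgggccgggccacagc

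None of these 3 windows held the FoxO core TGTTTAC. Other sequences that FoxO factors can bind were not searched, so the windows may hold such sites. The Pik3ip1 and Ccng2 windows each held 1 half-site CACGCG, starting 108 and 49 bases before the start site, and the Klf2 window held none of the 5 motifs. The start used for Pik3ip1 lies 11490 bases inside the outermost start of the gene in the same annotation, so another of its promoters was not searched. Bases G and C made up 53.6% of the Pik3ip1 window, 59.6% of the Ccng2 window and 71.2% of the Klf2 window, beside a median of 52.4% over all windows.

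The FoxO core occurred in the windows of Btg1 and Txnip, which are shown for that reason. Their positions are chr10:96616751-96617000 (plus strand) and chr3:96557707-96557956 (plus strand).

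Btg1: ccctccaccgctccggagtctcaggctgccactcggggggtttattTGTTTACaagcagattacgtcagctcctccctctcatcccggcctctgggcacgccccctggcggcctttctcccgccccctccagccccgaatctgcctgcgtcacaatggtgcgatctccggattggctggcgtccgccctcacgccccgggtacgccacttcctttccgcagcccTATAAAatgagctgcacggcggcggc
Txnip: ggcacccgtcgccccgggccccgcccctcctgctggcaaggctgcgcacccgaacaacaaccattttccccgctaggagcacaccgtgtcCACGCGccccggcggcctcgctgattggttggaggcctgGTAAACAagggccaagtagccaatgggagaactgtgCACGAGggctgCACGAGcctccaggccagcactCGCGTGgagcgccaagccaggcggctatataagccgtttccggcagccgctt

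In the Btg1 window the core started 204 bases before the start site, and a TATA box started 26 bases before it. The Txnip window carried the core on the opposite strand, as GTAAACA, from 121 bases before the start site. It also carried 4 half-sites, of which the pair CACGAG and CACGAG, starting 85 and 74 bases before the start site, lie 5 bases apart in the arrangement known as a carbohydrate response element. Neither gene passed the test. These matches describe letters in a window and no binding was measured here.

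Txnip, known as a sensor of glucose supply and a FoxO target, lay in the brightest part of the array's range. Its pristine arrays read 10.87, 10.95 and 10.89 and its modified arrays 10.71, 10.77 and 10.74. Each modified value lay below each pristine value by a small margin. The means were 10.90 ± 0.042 and 10.74 ± 0.030 (SD, n = 3), a change of -0.16 ± 0.087 (SE; 95% confidence interval -0.36 to 0.0347; adjusted p = 0.322). A variance model with an intensity trend, which gives bright genes a smaller variance, called it lower (adjusted p = 0.0095). Spike scaling adds the same 0.25 to the change of every gene, so the Txnip change became 0.0827 (adjusted p = 0.728), or -0.17 relative to the median of all genes.

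The Txnip relatives and partners were mixed. Of 14 alpha-arrestin, thioredoxin, Mondo-Mlx and glucose transporter genes, 1 was higher and 4 were lower, beside 5.24% and 5.15% of all genes. Their median change was -0.0028. Arrdc4, an alpha-arrestin gene that like Txnip is known to answer to the Mondo-Mlx factors, fell from 7.30 to 6.16 (2.20-fold, adjusted p = 0.00156), and Arrdc2 rose 1.44-fold (adjusted p = 0.0317). Slc2a1, the gene of the glucose transporter that TXNIP is known to draw from the membrane, fell by 0.87 (adjusted p = 0.00156). Mlx, the shared dimer partner of the Mondo factors, fell by 0.45 (adjusted p = 0.0223), and the thioredoxin reductase gene Txnrd1 fell by 0.39 (adjusted p = 0.0283). Thioredoxin itself, Txn1, read 11.06 and 11.17 (adjusted p = 0.545), and the mitochondrial Txn2 read 8.82 and 8.47 (adjusted p = 0.0675). Arrdc3 read 5.84 and 6.17 (adjusted p = 0.121). The calls for Arrdc4 and Slc2a1 held in each of the 6 fits without 1 array, whereas Arrdc2 was lost without pristine replicate 1 or 3 or modified replicate 1 or 3, Mlx without pristine replicate 1, 2 or 3 or modified replicate 3, and Txnrd1 without any array but modified replicate 1 (adjusted p up to 0.106). Scaled to the spikes, 2 genes of this list were higher and 2 lower, and the calls for Mlx (adjusted p = 0.405) and Txnrd1 (0.54) were lost.

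The FoxO genes themselves showed no difference that passed the test. Foxo1, the member best known for metabolic control, read 5.78, 5.54 and 5.94 on pristine and 6.11, 6.07 and 5.61 on modified PEEK. The ranges overlapped, with modified replicate 3 inside the pristine range and the other modified arrays above it. The change was 0.17 ± 0.16 (SE; 95% confidence interval -0.20 to 0.55; adjusted p = 0.606). Foxo3, linked to stem cell quiescence and longevity, read 6.31, 6.05 and 5.95 against 5.85, 6.24 and 6.19. Its values were interleaved, with a change of -0.0097 ± 0.14 (SE; 95% confidence interval -0.33 to 0.32; adjusted p = 0.98) whose sign turned in 6 of 19 alternative settings. Foxo4, an X-linked member of the family, read 4.47, 4.81 and 4.98 against 4.69, 4.59 and 5.03, with a change of 0.0163 ± 0.16 (SE; 95% confidence interval -0.36 to 0.39; adjusted p = 0.972). On both surfaces Foxo4 was highest on replicate 3, and its ranges overlapped. These intervals leave room for changes of up to 0.55 on the log2 scale for Foxo1 and do not show that the genes were alike on both surfaces. None of the 3 passed in any alternative setting, where the lowest adjusted p was 0.189. Foxo6, the remaining family member, lay near the background at 3.90 and 4.22 (adjusted p = 0.208).

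The 3 genes nearest in pattern to each FoxO gene differed from it by 0.0486 to 0.0494 for Foxo1 (Gm21276, Olfr1383 and Egfem1), 0.0238 to 0.0373 for Foxo3 (Cmya5, Amph and Fxyd4) and 0.0329 to 0.0607 for Foxo4 (Zfp273, Prorp and Zfp160), as root mean square differences over 6 arrays. None of these 9 genes passed the test, which says little, as they were picked for patterns close to genes that did not pass. Of the 9, 4 lay below the background, the 3 nearest to Foxo1 with mean signals of 3.60, 2.22 and 2.31 and Cmya5 with 3.69.

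**Figure D2:**
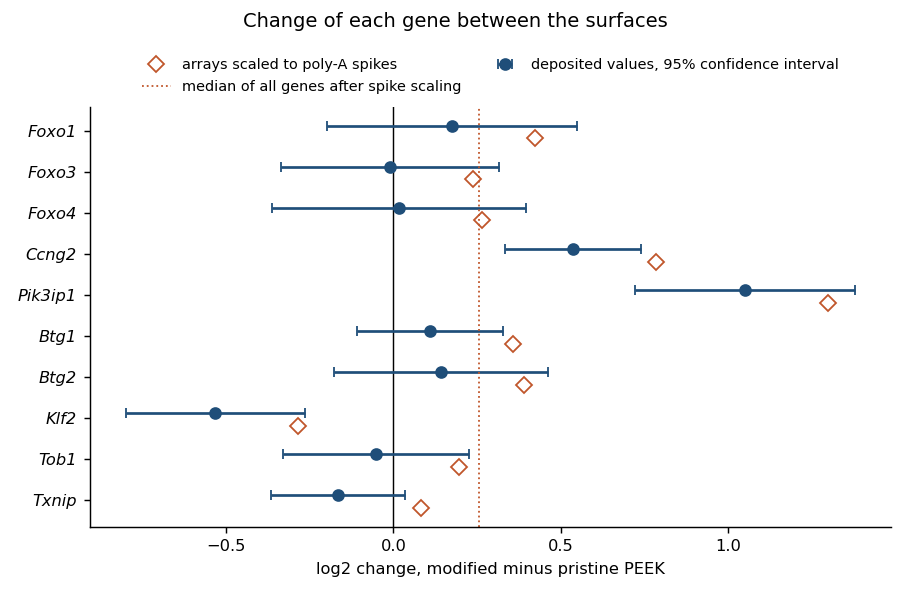
Log2 change of each gene (modified minus pristine PEEK, horizontal axis) with its 95% confidence interval (filled circles) and after scaling the arrays to the poly-A spikes (open diamonds; the dotted line at 0.26 is the median of all genes after that scaling). The intervals of Pik3ip1, Ccng2 and Klf2 leave out 0, and the scaling shifts every estimate up by the same 0.25, which takes those of Foxo3, Tob1 and Txnip across 0 but not past the median of all genes.

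Btg1, Btg2 and Tob1, adaptors that bring the CCR4-NOT deadenylase to mRNAs and slow the cell cycle, also stayed short of the threshold. Btg1 read 9.59, 9.48 and 9.59 on pristine and 9.76, 9.60 and 9.62 on modified PEEK. The groups did not overlap, but the gap between them was small beside the spread within each, and the change was 0.11 ± 0.095 (SE; 95% confidence interval -0.11 to 0.33; adjusted p = 0.57). Btg2, a p53-responsive immediate early gene, read 6.18, 6.20 and 6.30 against 6.65, 6.13 and 6.32. The modified arrays were more spread out (SD 0.26) than the pristine ones (SD 0.064), with replicate 1 far above the others, and the change was 0.14 ± 0.14 (SE; 95% confidence interval -0.18 to 0.46; adjusted p = 0.627). Without modified replicate 1 it was -0.00036. Its promoter window held the cyclic AMP element, from 166 bases before the start site. Tob1 read 6.91, 7.13 and 7.17 against 7.12, 7.10 and 6.83, with overlapping ranges and a change of -0.0517 ± 0.12 (SE; 95% confidence interval -0.33 to 0.23; adjusted p = 0.865).

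Of the 20 relatives and CCR4-NOT or deadenylation genes chosen, 18 were measured, with a median change of 0.0569. At an unadjusted limma p under 0.05, 3 were higher and 0 lower, beside 2206 higher and 2218 lower of all 19505 genes. After adjustment 1 gene was higher and 0 lower, beside 5.24% and 5.15% of all genes. That gene, Cnot6l, a catalytic subunit of the complex, rose 1.31-fold (adjusted p = 0.0308), a call lost without any 1 array except modified replicate 1 (adjusted p up to 0.129). Tob2 read 6.88 and 6.75 (adjusted p = 0.454), and Btg4 lay below the background on both surfaces. Cnot2, another subunit gene of the complex, read 9.71 and 9.90 (adjusted p = 0.273). Pabpc1, encoding the poly(A)-binding protein through which TOB proteins reach mRNAs, read 11.88 and 11.81 (adjusted p = 0.74).

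Among 16 relatives of Klf2, 2 fell and 0 rose by limma, beside 5.15% lower and 5.24% higher among all genes. At an unadjusted limma p under 0.05, 6 were lower and 1 higher, beside 2218 lower and 2206 higher of all 19505 genes. Klf3, a repressor of the family, fell by 0.57 (adjusted p = 0.0421), and Klf6, an early gene of macrophage activation, fell by 0.39 (adjusted p = 0.0321). Klf4, the closest relative of Klf2 in the monocyte lineage, read 6.65 and 6.70 (adjusted p = 0.847), while Klf13 read 8.29 and 8.15 (adjusted p = 0.439) and Klf9 read 7.94 and 7.97 (adjusted p = 0.939). The median change of the family was -0.11, which was 0.14 after scaling to the spikes, or -0.12 relative to all genes. The call for Klf6 was lost without any 1 of the 6 arrays and that for Klf3 without any array but modified replicate 3 (adjusted p up to 0.15), and both were lost when scaled to the spikes (adjusted p = 0.23 for Klf3 and 0.542 for Klf6).

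Of 34 genes listed as FoxO regulators, which include Foxo6 itself, 6 were higher and 3 lower, beside 5.24% and 5.15% of all genes. Their median change was 0.0386. The higher genes were Skp2 (1.62-fold, adjusted p = 0.00368), the ubiquitin ligase adaptor that directs degradation of FoxO1 and of cell-cycle inhibitors, the Akt-related kinase gene Sgk3 (1.46-fold, adjusted p = 0.00752), the leukocyte PI 3-kinase catalytic genes Pik3cg (1.42-fold) and Pik3cd (1.39-fold), the regulatory subunit gene Pik3r1 (1.37-fold), and Inpp5d (1.32-fold), the phosphatase that opposes PI 3-kinase in blood cells. Ywhag, encoding a phosphoserine-binding adaptor of the family that retains FoxO in the cytoplasm, fell by 0.63 (adjusted p = 0.00831), the ubiquitin ligase gene Mdm2 fell by 0.54 (adjusted p = 0.00555), and the catalytic gene Pik3cb fell by 0.40 (adjusted p = 0.0242). The adaptors Ywhae (11.21 and 11.25, adjusted p = 0.853) and Ywhaz (11.10 and 10.91, adjusted p = 0.269) did not pass, nor did Akt1 (9.53 and 9.45, adjusted p = 0.673). Calls for Skp2, Sgk3, Ywhag and Mdm2 held in the 6 fits without 1 array. The other 5 were each lost in 1 to 5 of those fits: Pik3cg without pristine replicate 3, Pik3cd without pristine replicate 1 or 2 or modified replicate 3, Pik3r1 without pristine replicate 1 or 2 or modified replicate 1 or 3, Inpp5d without any array but modified replicate 3, and Pik3cb without any array but modified replicate 1. Scaled to the spikes, the calls for Ywhag (adjusted p = 0.161), Mdm2 (0.249) and Pik3cb (0.513) were lost.

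Of 42 genes known as FoxO targets in other cells, 10 fell and 2 rose, beside 5.15% and 5.24% of all genes. Their median change of -0.18 was 0.0694 after scaling to the spikes, or -0.19 relative to all genes. The list pools genes that FoxO factors raise with genes they repress, so neither its counts nor its median measure FoxO activity. Sesn1, a sestrin gene of nutrient sensing, rose 3.19-fold (adjusted p = 0.00013), and Cdkn1b, encoding a cyclin-dependent kinase inhibitor that FoxO factors are known to raise, rose 1.36-fold (adjusted p = 0.0455). Ccnd2, a D-type cyclin gene that FoxO factors are known to repress, fell from 6.36 to 4.10 (4.78-fold, adjusted p = 0.000176). Its signal on modified PEEK lay near the background of 3.72. The cytokine receptor gene Il7r fell by 1.88 (adjusted p = 0.00239), the growth arrest gene Gadd45a by 1.48 (adjusted p = 0.000228), the translation inhibitor gene Eif4ebp1 by 0.73 (adjusted p = 0.00133), the catalase gene Cat by 0.71 (adjusted p = 0.00166) and the kinase inhibitor gene Cdkn1a by 0.67 (adjusted p = 0.00365). Zfand5 fell by 0.50, the autophagy genes Atg12 and Map1lc3b by 0.46 and 0.38, and Klf6 completed the 10. At high signal, Cited2 (11.71 and 11.49, adjusted p = 0.229) and Ddb1 (9.44 and 9.42, adjusted p = 0.955) did not pass. Calls for Cdkn1b, Zfand5, Atg12, Map1lc3b and Klf6 were each lost in 2 to 6 of the 6 fits without 1 array (adjusted p up to 0.148), Zfand5 without pristine replicate 1 or 3, Cdkn1b without any array but modified replicate 2, Atg12 and Map1lc3b without any but modified replicate 1. After scaling to the spikes 3 of the 42 were lower, namely Ccnd2, Il7r and Gadd45a. The calls for Eif4ebp1 (adjusted p = 0.0735), Cat (0.0926), Cdkn1a (0.127), Zfand5 (0.31), Atg12 (0.358), Map1lc3b (0.55) and Klf6 (0.542) were lost there.

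Among 25 other quiescence and pocket-protein genes, 8 were higher and 1 lower (median change 0.25), beside 5.24% and 5.15% of all genes. Of the 25, 3 genes, Cdkn1a, Cdkn1b and Rbl2, also stand among the FoxO targets. The list also holds genes that act in dividing cells, such as Lin9, so its count does not measure quiescence. Cdkn2c, an inhibitor of the kinases that D-type cyclins activate, rose 2.75-fold (adjusted p = 0.000236). The pocket-protein gene Rbl1 rose 1.87-fold (adjusted p = 0.000598), Mxd4, encoding a Max partner that opposes Myc, rose 1.74-fold (adjusted p = 0.00335), and Lin9, a subunit shared by a repressor complex of quiescence and an activator complex of mitosis, rose 1.59-fold (adjusted p = 0.00241). Cdkn2d, Cdkn1b, Mxi1 and Lin54 were the other higher genes, and Cdkn1a the lower one, whose call was lost when scaled to the spikes (adjusted p = 0.127). Rbl2, the pocket protein most tied to quiescence, read 7.30 and 7.59 (adjusted p = 0.118). Lin54 was lost without any 1 array, Mxi1 without any but modified replicate 2, and Cdkn1b as above, so that 5 genes were higher in the smallest of those fits.

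Cell division genes moved alongside. Of 18 such genes measured, 16 were higher and 0 lower by limma, beside 5.24% and 5.15% of all genes. Their median change was 1.09. At an unadjusted limma p under 0.05, 18 were higher and 0 lower, beside 2206 higher and 2218 lower of all 19505 genes. The largest rises were those of Ccna2 (2.51-fold), Plk1 (2.46-fold), Top2a (2.44-fold) and Bub1 (2.42-fold), whose products act in S phase and mitosis. Pcna (10.67 and 10.96, adjusted p = 0.101) and Mcm2 (8.37 and 8.68, adjusted p = 0.0934) did not pass. Ccne1 was lost without any array but modified replicate 3 (adjusted p up to 0.0917). In RNA from a whole culture, a different share of cells in a phase and a different amount of RNA per cell cannot be told apart, and the part of cell division in the changes of Pik3ip1, Ccng2 and Klf2 was not tested.

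**Figure D3:**
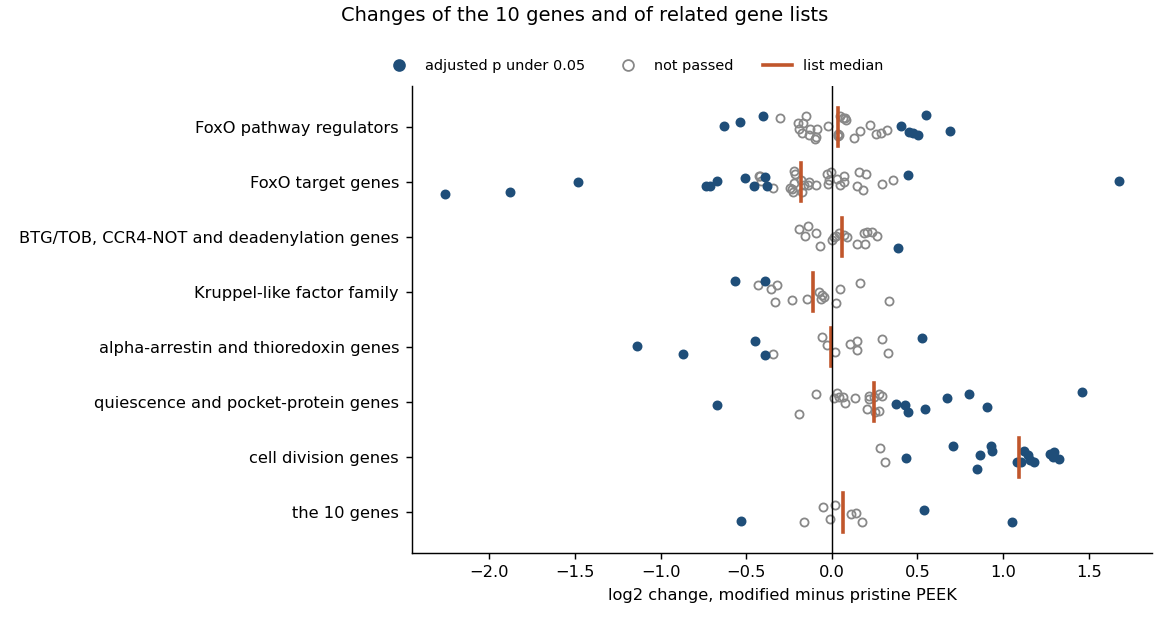
Log2 change (modified minus pristine PEEK, horizontal axis) of every measured gene of 7 related lists and of the 10 genes; each point is a gene, filled at an adjusted p under 0.05, and the vertical bar is the list median. Cell division genes lie around 1.09 and FoxO targets on -0.18 (0.0694 after scaling to the spikes), while the 10 genes lie around 0.0633.

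The label of a macrophage line was checked on defining genes. Of 12 macrophage markers 11 were measured and 11 lay above the background, among them Csf1r, Lyz2 and Spi1; Adgre1 rose by 0.54 and Itgam and Itgb2 fell by 0.59 and 0.41. Itgb2 lost its call without any array but modified replicate 1. Scaled to the spikes, neither Itgam (change -0.34, adjusted p = 0.213) nor Itgb2 (-0.16, adjusted p = 0.502) passed. Osteoclast genes, which this line can express, were lower in 3 of 8 cases (Acp5, Dcstamp and Mmp9), beside 5.15% of all genes. The rest did not pass, and Ocstamp went up by 0.33. Mmp9 lay below the background on modified PEEK. The summed linear signal of the list was 728 to 744 on pristine and 391 to 467 on modified arrays. Acp5 and Dcstamp were its brightest genes and weigh most in that sum. The part of osteoclast genes in the changes described was not tested. Of 23 markers of 6 other lineages 7 lay above the background and 0 passed by limma. At an unadjusted limma p under 0.05, 3 of them passed, beside 4424 of all 19505 genes. All endothelial and T cell markers lay below the background. Correlations between arrays over genes were 0.991 to 0.995 within and 0.985 to 0.988 between surfaces.

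**Figure D4:**
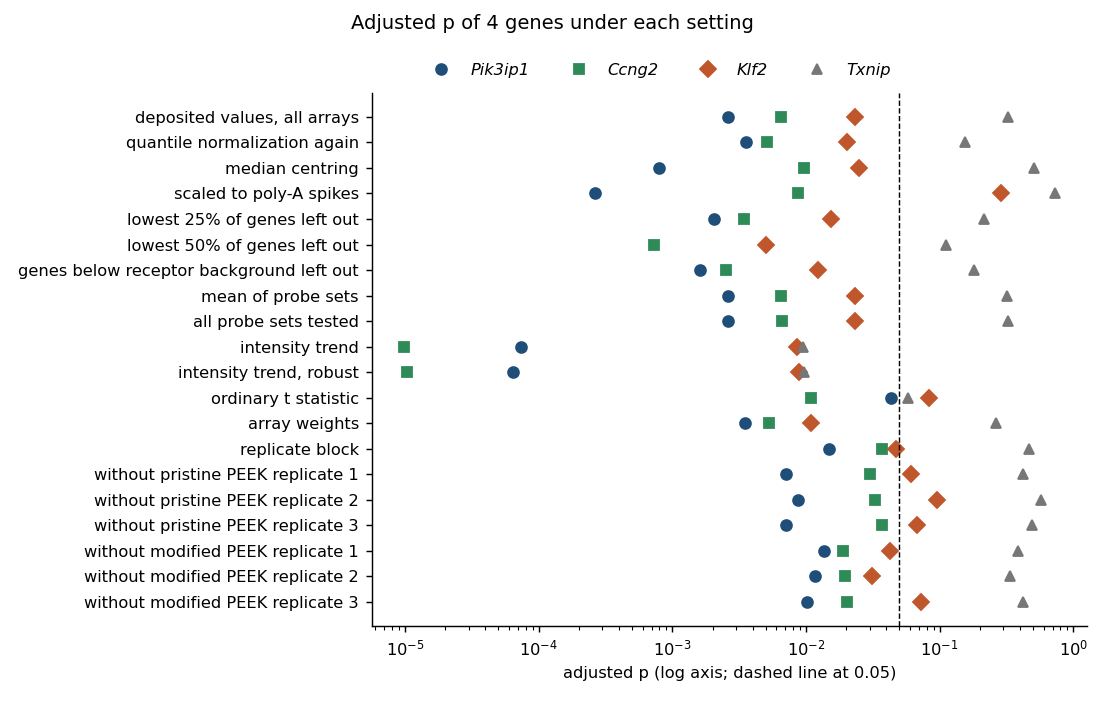
Adjusted p (horizontal log axis, dashed line at 0.05) of Pik3ip1, Ccng2, Klf2 and Txnip in the fit of the deposited values and in each alternative setting. Pik3ip1 and Ccng2 stay left of the line wherever tested, Klf2 crosses it in 6 settings, and Txnip lies left of it only with an intensity trend.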

How the data were processed

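Total RNA (250 ng) was labelled with biotin and hybridised on Affymetrix arrays according to the labels' protocols. The deposited values are log2 signals per probe set; RMA is named, without version or role, in the submitters' processing notes, and the log2 scale was read from the values. The brightest probe set stood for each of the 19505 genes, named through the platform annotation; no source used here gave the annotation's genome build. The fit used limma 3.58.1 under R 4.3.3 (lmFit, eBayes, 3 arrays against 3, no covariate, two-sided, Benjamini-Hochberg over all genes, called at 0.05), which was tested on simulated data. The number of arrays limits the precision. The 10 genes and the 7 lists were chosen with earlier results of these data known, so counts over them are descriptions. By rule, the text named all 10 genes, their relatives, the 4 largest calls of each list, its 2 brightest genes without a call, and the 3 genes nearest in pattern to Pik3ip1 and to each FoxO gene; other genes that passed, Akt1, Rbl2 and the markers were added after their values were seen. Alternatives were quantile normalization, median centring, spike scaling, 3 filters on dim genes, 2 ways of treating probe sets, 2 trended variance models, an ordinary t statistic per gene, array weights, a replicate block and leaving out each array. The mean of the 24 poly-A spike probe sets was 6.96 ± 0.15 for pristine and 6.71 ± 0.14 for modified PEEK (SD, n = 3), so scaling to them moved the median change of all genes by 0.25. The 18 hybridisation spike probe sets read 9.31 ± 0.076 and 9.14 ± 0.11 (SD, n = 3), a difference of -0.17. Why both sets of spikes were lower was not tested, so spike scaling is not taken as a correction for RNA input.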

Additional observations from a re-analysis of the deposited data

How the results depend on the processing

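Across 19 alternative settings, the calls for Ccng2 (adjusted p 9.8e-06 to 0.0371) and, in the 18 where it was tested, Pik3ip1 (6.4e-05 to 0.0431) held. With the dimmest 50% of genes left out Pik3ip1 was not tested, so 1 of the 10 genes was higher; Foxo4 was not tested there either. Scaled to the poly-A spikes, 1575 genes were higher and 290 lower, 0 of the 10 genes lower, and the lower counts were 0 for FoxO regulators, 3 for FoxO targets, 0 for Kruppel-like factors, 2 for arrestin genes (2 higher) and 0 for quiescence genes. That scaling adds 0.25 to every change, so any gene between -0.25 and 0 turns positive. Among the genes named, those that did so, none passing, were Foxo3 (0.24), Tob1 (0.20), Txnip (0.0827), Ywhaz (0.0553), Cited2 (0.0275), Ddb1 (0.23), Pabpc1 (0.18), Klf13 (0.10), Ccng1 (0.058), Btg4 (0.0566), Tob2 (0.11), Akt1 (0.16), Spi1 (0.15), Cmya5 (0.20), Amph (0.20), Zfp273 (0.23) and Prorp (0.24). Foxo3 also changed sign with quantile normalization (0.0083), median centring (0.0015) and array weights (0.0547), Prorp with the same 3 (0.0033, 0.0080 and 0.0874), and Klf9 (-0.0093), Ddb1 (0.0175), Olfr1383 (-0.00082), Cmya5 (0.0230), Amph (0.0049) and Zfp273 (0.0302) with array weights. Without 1 array, genes that did not pass ran across 0, from -0.0853 to 0.11 for Foxo3, -0.12 to 0.13 for Foxo4, -0.13 to 0.0405 for Tob1, -0.00036 to 0.26 for Btg2, -0.0781 to 0.0752 for Klf9, -0.0645 to 0.0118 for Ddb1, -0.13 to 0.0764 for Cmya5, -0.15 to 0.0765 for Amph, -0.0852 to 0.12 for Fxyd4, -0.14 to 0.0842 for Zfp273, -0.18 to 0.12 for Prorp and -0.14 to 0.15 for Zfp160.

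With an intensity trend 1586 genes were higher and 1719 lower (1580 and 1702 with robust fitting), and in both fits 2 of the 10 genes, 5 FoxO regulators were lower, and 4 FoxO targets, 3 deadenylation genes and 2 arrestin genes were higher. An ordinary t statistic left 0 of the 10 genes lower, 1 FoxO target higher and 1 Kruppel-like factor lower. Median centring left 1 FoxO target and 0 deadenylation genes higher and 1 Kruppel-like factor lower. With the dimmest 25% of genes, or those below the background, left out, 4 Kruppel-like factors were lower and 2 arrestin genes higher. With the dimmest 50% left out, 1522 genes were lower, 4 Kruppel-like factors were lower, and 3 deadenylation and 3 arrestin genes were higher.

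Replicate numbers gave little sign of pairing: deviations of same-numbered arrays correlated at -0.17, -0.16 and 0.0685, and 2 of 6 arrays correlated best with their own number. With 3 arrays per surface, these values cannot decide whether the samples were paired. With the replicate number as a block, 646 genes were higher and 622 lower; Pik3ip1, Ccng2 and Klf2 (adjusted p = 0.0469) still passed, while 3 FoxO regulators, 1 FoxO target, 0 deadenylation genes, 0 arrestin genes and 5 quiescence genes were higher, and 6 FoxO targets, 1 Kruppel-like factor and 2 arrestin genes lower.

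Leaving out 1 array gave 594 to 903 genes higher and 548 to 1048 lower, and 0 to 1 of the 10 genes lower. Higher counts ran from 3 to 5 for FoxO regulators, 1 to 2 for FoxO targets, 0 to 1 for deadenylation genes, 0 to 1 for arrestin genes and 5 to 7 for quiescence genes. Lower counts ran from 6 to 12 for FoxO targets, 0 to 1 for Kruppel-like factors and 2 to 4 for arrestin genes. The cause of these shifts was not tested.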
